A study of Mus musculus with 24 samples.

Results

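Cytochrome P450 enzymes are haem proteins that oxidise drugs, plant compounds, fatty acids, sterols, bile acids and retinoids. Their genes carry the symbol Cyp, a family number, a subfamily letter and a gene number. In the data set of 37620 mouse genes, 90 symbols had that form, and the 38 with a mean of 10 or more estimated counts over 24 libraries were taken as members. All 38 passed the filter on low counts and were among the 16552 genes tested. At the edge of the rule, Cyp4x1 (mean 10.2) and Cyp2j13 (12.4) were just inside, and Cyp2t4 (8.75) and Cyp27b1 (8.67) were just outside.

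The libraries are RNA sequencing of poly(A) RNA from isolated crypts of the mouse jejunum, from 24 mice, 3 per genotype and day. The genotypes were named Control, NlecKO, ApccKO and ApccKO;NlecKO, the last called the double knockout here. NlecKO mice lose Nle1 (Notchless), a factor of large ribosomal subunit assembly, and ApccKO mice lose Apc, the scaffold that holds Wnt signalling in check. All mice, Control included, were 5 to 10 weeks old and received tamoxifen into the peritoneum at 56 mg per kg on 3 days in a row, and were sampled at time points named d1 and d2, here day 1 and day 2. The labels name neither the Cre driver nor the alleles the Control mice carry. A crypt preparation holds all cell types that come off with the crypt, and in such bulk RNA fewer cells of a type and less RNA per cell cannot be told apart.

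Depth was 17.9 to 26.5 M (mega) estimated counts per library, with a median of 19.8 M. Nle1 was at 24.8 ± 2.60 CPM (counts per M of library size, ± SD) in Control on day 1 and at 5.53 ± 0.841 in NlecKO. It was at 37.2 ± 2.33 in ApccKO and at 9.59 ± 2.41 in the double knockout, and day 2 showed the same order of groups. The Apc transcript, at group means of 130 to 147 CPM, did not separate the groups and checks nothing, since part of a deleted gene can still be read. The Wnt target Axin2 was at 111 ± 13.2 CPM in Control and 462 ± 32.6 in ApccKO on day 1. By the edgeR test described below, 16 of 16 Wnt targets were higher in ApccKO than in Control on day 1 and 15 on day 2. Of all genes tested, 24.7% and 29.2% were higher. The summed level of 26 enterocyte markers differed widely between libraries of 1 group. It ran from 13668 to 46521 CPM over the 6 Control libraries, with day 2 replicate 2 the lowest. On day 1 it was 5164 CPM in ApccKO replicate 1 but 14370 and 10722 in replicates 2 and 3, and 21912 in double knockout replicate 3 against 10164 and 7030 in the other two. Each day 1 result with Apc lost was therefore also computed without those 3 high libraries, which leaves 1 ApccKO library whose spread is assumed to be that of the other groups. Summed member levels were 356 TPM in the ApccKO library kept and 867 and 697 TPM in those dropped. In the double knockout they were 666 and 473 TPM in the libraries kept and 1340 TPM in the one dropped. The choice itself thus favours larger falls against groups with Apc and smaller falls from day 1 to day 2. The summed level of 12 hepatocyte markers, from a tissue rich in P450 transcripts, was 5.49 to 14.1 CPM per library, and Alb was at most 1.82 CPM in any library.

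In the gut, P450 enzymes sit mainly in the absorptive cells, where they are a first line of metabolism of what is eaten. Enzymes of families 1 to 3 act chiefly on foreign compounds and are induced through receptors such as PXR (Nr1i2), CAR (Nr1i3) and the Ah receptor. Family 4 enzymes hydroxylate fatty acids and eicosanoids, and other families make or clear bile acids, vitamin D and retinoic acid. Microsomal P450 enzymes receive their electrons from P450 reductase (Por) and need haem, whose synthesis starts with Alas1.

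Many members lie in gene clusters of close paralogs. In GRCm38, 9 members lie on chromosome 19 (the Cyp2c genes), 8 on chromosome 17 (7 Cyp4f genes and Cyp39a1) and 6 on chromosome 4. Reads from near-identical copies can be shared between genes, so the share of 31-base words of each gene that also occur in another gene was computed. It was 72.6% for Cyp2c40, 67.6% for Cyp2c67, 62.0% for Cyp2c68, 45.9% for Cyp3a25 and 44.9% for Cyp4a10. Cyp2c65 and Cyp2c66 shared 35.4% and 33.4% of their words, mostly with each other. The share was 26.8% for Cyp4f16, 22.5% for Cyp4x1 and 19.5% for Cyp2b10. Values for these 10 genes are less certain for that reason, but the share is not a percentage error of the level. Other members had lower shares, such as 15.79% for Cyp3a11, 14.99% for Cyp2d26, 14.5% for Cyp2u1 and 12.1% for Cyp4f17.

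The 130 bases before the start of 8 members are shown because 6 of them hold CAAAGTCCA, a word bound by HNF4 (nuclear receptors of intestinal and liver identity), and the other pair gives contrast: Cyp2e1, the P450 that rose most with Apc loss, and Cyp3a25, a neighbour of Cyp3a11 without the word. Sequences are RefSeq promoters on build GRCm38.p6, written 5′ to 3′ on the gene's strand. Capitals mark CAAAGTCCA, and in Cyp2c68 also CACGC, the reverse complement of GCGTG.
Cyp3a11: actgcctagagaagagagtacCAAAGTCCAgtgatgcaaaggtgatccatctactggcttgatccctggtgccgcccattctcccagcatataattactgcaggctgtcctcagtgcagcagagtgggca
Cyp2c40: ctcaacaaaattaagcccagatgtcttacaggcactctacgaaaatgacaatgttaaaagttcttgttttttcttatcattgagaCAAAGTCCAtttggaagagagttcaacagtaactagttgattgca
Cyp2c65: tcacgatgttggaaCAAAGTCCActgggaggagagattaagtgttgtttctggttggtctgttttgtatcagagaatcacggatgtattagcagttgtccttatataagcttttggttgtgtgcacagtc
Cyp2c67: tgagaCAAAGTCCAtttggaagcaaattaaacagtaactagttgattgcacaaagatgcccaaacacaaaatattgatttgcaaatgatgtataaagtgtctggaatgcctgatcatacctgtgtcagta
Cyp2c68: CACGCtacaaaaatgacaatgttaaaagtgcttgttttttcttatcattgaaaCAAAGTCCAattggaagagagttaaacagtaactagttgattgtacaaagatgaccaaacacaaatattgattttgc
Cyp2c70: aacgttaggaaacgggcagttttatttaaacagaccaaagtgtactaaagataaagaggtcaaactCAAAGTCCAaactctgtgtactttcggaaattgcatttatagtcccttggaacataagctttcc
Cyp3a25: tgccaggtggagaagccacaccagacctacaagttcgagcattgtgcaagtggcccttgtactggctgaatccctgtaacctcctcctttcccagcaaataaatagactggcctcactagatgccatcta
Cyp2e1: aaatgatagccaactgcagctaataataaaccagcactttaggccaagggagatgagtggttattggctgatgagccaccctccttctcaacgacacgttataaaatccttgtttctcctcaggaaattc

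Cyp2c40 lies on the minus strand with this stretch at chr19:39812815-39812944. For Cyp2c65 (plus strand) it is chr19:39060876-39061005, for Cyp2c67 (minus) chr19:39649043-39649172, for Cyp2c68 (minus) chr19:39741102-39741231 and for Cyp2c70 (minus) chr19:40187287-40187416. For Cyp3a11 (minus) it is chr5:145879855-145879984, for Cyp3a25 (minus) chr5:146009618-146009747 and for Cyp2e1 (plus) chr7:140763689-140763818. RefSeq promoters of 300 bases, from 250 before to 50 after the start, were found for 31 of 38 members. CAAAGTCCA, searched on both strands, was in 6 of these 31 genes and in 0.47% of all 32851 promoters of that length. Of these 6 genes, 5 are Cyp2c paralogs of 1 cluster and so share sequence by descent. The other words searched were GCGTG (core of the Ah receptor element; 11 of 31 members, 32.39% of all promoters), CTTTGAT (TCF; Cyp2c29, 3.73%) and TTTATTG (CDX2; Cyp2c55 and Cyp4f40, 4.6%). These matches describe letters in a window and show no binding.

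Compared per length as TPM (the authors' length-scaled transcript values), P450 transcripts in Control crypts were dominated by few genes. The mean over the 6 Control libraries was highest for Cyp4f14 (324 TPM), which hydroxylates leukotrienes and vitamin E, followed by Cyp3a13 (169), Cyp2d26 (165), Cyp4f16 (146) and Cyp3a11 (128), the main drug-metabolising Cyp3a enzyme of mouse. These 5 genes held 56.2% of the summed member TPM on day 1. Below them came Cyp4f40 (89.0 TPM), Cyp3a25 (88.8), Cyp4v3 (81.9), Cyp2s1 (66.4), Cyp2c65 (65.6), Cyp2j6 (58.1) and Cyp4f13 (41.3), and the lowest were Cyp4x1 (0.163) and Cyp26b1 (0.0442). The order of near neighbours is not resolved: Cyp3a11 alone ran from 52.2 to 544 CPM over the 6 Control mice.

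How much a member varied among Control mice depended on the gene. From the lowest to the highest Control library the level differed 10.4-fold for Cyp3a11, 7.63-fold for Cyp2b10 (the CAR-induced drug enzyme), 6.15-fold for Cyp3a25 and 17.6-fold for Cyp2c55, against 3.40-fold for the enterocyte marker sum. By contrast the range was 1.46-fold for Cyp4f40, 1.44-fold for Cyp2s1, 1.38-fold for Cyp4f17 and 1.26-fold for Cyp39a1, an oxysterol 7-hydroxylase. On day 2, Cyp4f40 was at 137, 136 and 135 CPM in the 3 Control mice while Cyp3a11 was at 191, 53.2 and 544 CPM.

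The summed member level was 1547 ± 595 TPM in Control and 640 ± 261 in ApccKO on day 1, and 1678 ± 699 and 354 ± 86.5 on day 2. In NlecKO it was 2064 ± 323 and 1970 ± 358, and in the double knockout 826 ± 455 and 697 ± 116. On each day the 3 ApccKO libraries lay below the 3 Control libraries.

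**Figure D1:**
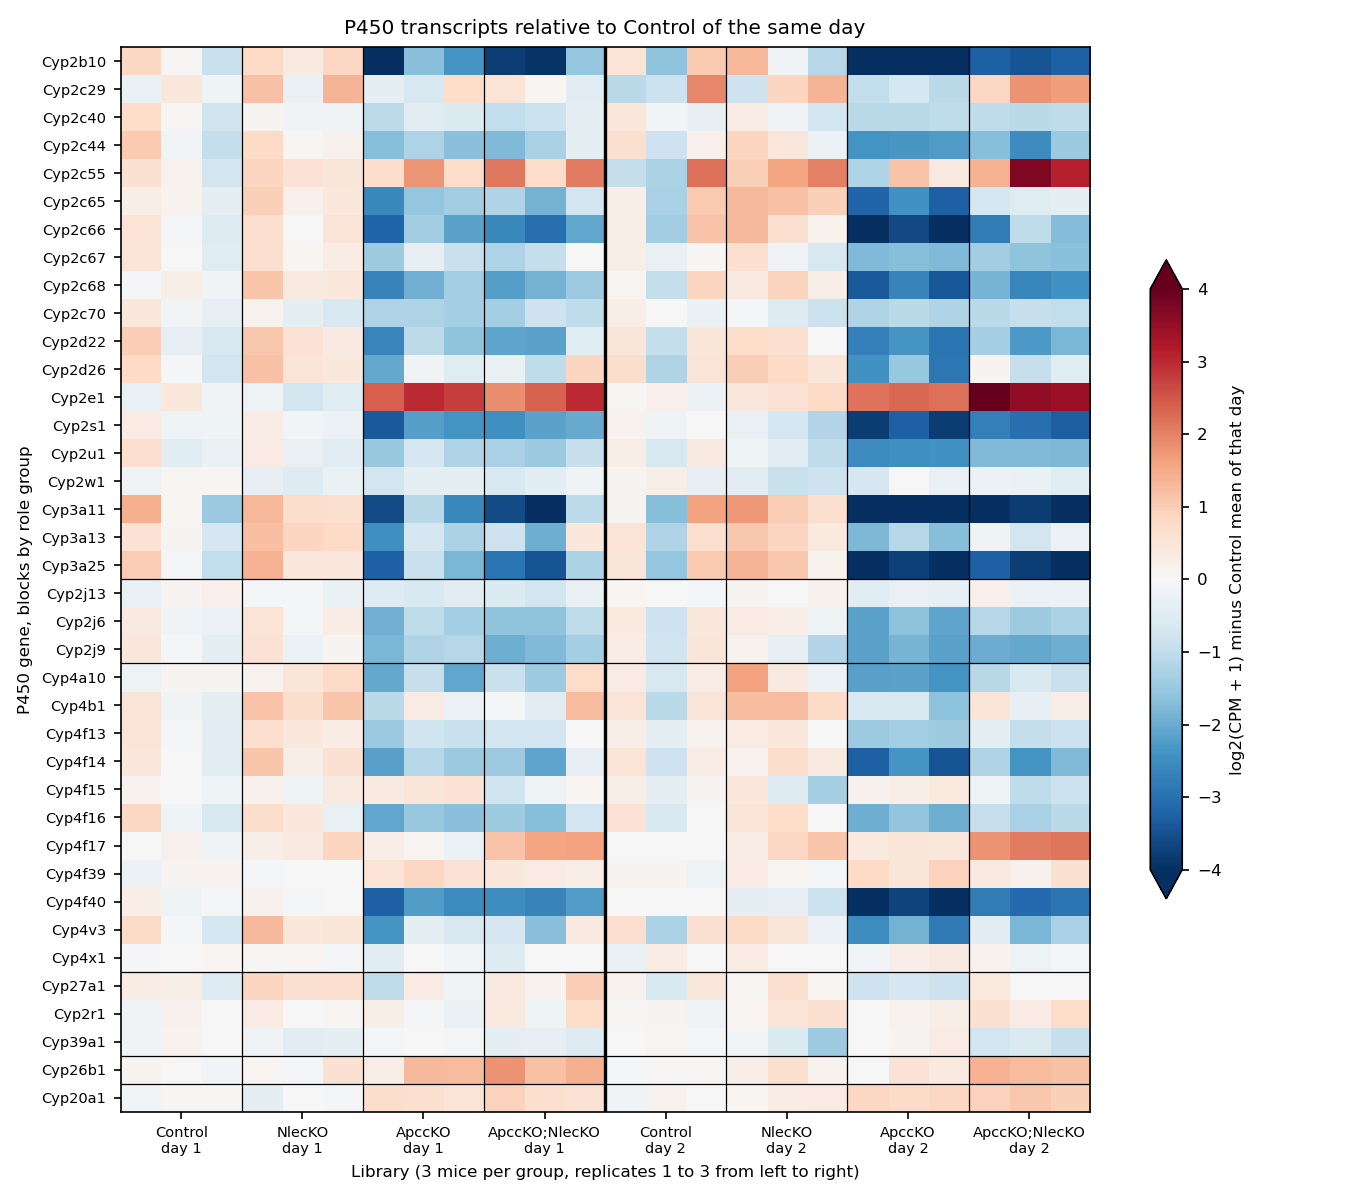
Each cell is the log2(CPM + 1) of a P450 gene (rows, in blocks by role) in 1 library (columns, 3 mice per group) minus the Control mean of the same day. Most rows are blue in the ApccKO and ApccKO;NlecKO columns. Cyp2e1, Cyp20a1, Cyp26b1 and Cyp4f39 lie above the Control mean there, with some Cyp26b1 and Cyp4f39 cells near white. Cyp2c55 and Cyp4f17 are red in the ApccKO;NlecKO columns. Colours stop at 4 in either direction.

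Loss of Apc with Nle1 present lowered most P450 transcripts. On day 1, 20 of 38 members fell and 4 rose (edgeR quasi-likelihood test, Benjamini-Hochberg adjusted p under 0.05), where 49.7% of all genes tested were called either way, 25% lower and 24.7% higher. On day 2, 26 fell and 4 rose, against 58.7% of all genes called, 29.4% lower and 29.2% higher. The median log2 fold change of the members was -1.41 on day 1 and -2.50 on day 2, beside -0.01 and 0.01 over all genes tested. Of the 20 members that fell on day 1, 19 (95%) also fell on day 2, where they were 73.1% of those that fell.

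Of the 19 members of families 1 to 3 (Cyp2j genes and Cyp2r1 set apart), 12 fell on day 1 and 16 on day 2, and Cyp2e1 rose on both. The group was set by family number. It holds no family 1 gene: Cyp1a1 (mean 6.875 estimated counts), Cyp1b1 (3.125) and Cyp1a2 (0.333) were below the rule for members. The group also holds enzymes of the body's own compounds, such as Cyp2c70 (bile acids), Cyp2u1, Cyp2s1 and Cyp2c55. Cyp3a11 went from 400, 156 and 52.2 CPM in Control to 11.4, 68.0 and 24.2 CPM in ApccKO on day 1. The groups overlapped, and the log2 fold change was -2.55 ± 1.03 (SE throughout; adjusted p = 0.0491). On day 2 the ApccKO libraries held 0.911, 7.62 and 2.56 CPM, all below the Control range, a log2 fold change of -6.15 ± 1.25 (adjusted p = 0.000453). Cyp3a25, its neighbour, was not called on day 1 but fell by 5.45 ± 0.99 on the log2 scale on day 2. Cyp3a13, the second most abundant member, fell by 1.39 ± 0.56 (adjusted p = 0.0467) and 1.74 ± 0.56 (adjusted p = 0.013).

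Cyp2b10 fell by 2.72 ± 0.85 on day 1 and 5.92 ± 1.10 on day 2. Among the Cyp2c enzymes, which oxidise drugs and make epoxides of arachidonic acid, Cyp2c44 fell by 2.66 ± 0.77 on the log2 scale on day 1. Cyp2c66 fell on both days, to a log2 fold change of -5.51 ± 0.82 on day 2. For Cyp2c70, which makes the muricholic acids of mouse bile, the fitted log2 fold change on day 1 was -4.55 ± 0.84. A pair of members was almost without reads in ApccKO on day 2. Cyp2c67 had 1 count over 3 ApccKO libraries against 145 in Control, which is 0.741% of the Control level with an exact 95% interval of 0.0186% to 4.20%. Cyp2c70 had 2 counts against 83, or 2.59% (0.309% to 9.66%), where intervals cover counting error only. The fitted log2 fold changes, -6.83 ± 1.30 and -5.21 ± 0.95, depend on the prior count for such genes.

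Cyp2s1, an enzyme of epithelia that takes retinoids and eicosanoids, gave groups far apart at low spread. It was at 116, 80.8 and 82.3 CPM in Control and 7.99, 19.02 and 16.7 in ApccKO on day 1, and fell by 2.68 ± 0.29 and, on day 2, 3.77 ± 0.31. Cyp2d26 was not called on day 1 (-0.82 ± 0.59, adjusted p = 0.262, and -2.17, 0.0536, without the 3 high libraries) and fell by 2.41 ± 0.62 on day 2. Cyp2d22, Cyp2c65 and Cyp2c68 fell on both days, as did the fatty acid hydroxylase Cyp2u1, and Cyp2c40 fell on day 2 and was not called on day 1. Cyp2c29 was also called lower on day 2 only, with overlapping groups (0.0582, 0.223 and 7.44 CPM in Control against 0.130, 0.361 and 0.0465 in ApccKO). That call rested on 1 Control mouse: without Control replicate 3 the log2 fold change was 0.21 (adjusted p = 0.932). Cyp2w1 fell on day 1 (1.15, 1.42 and 1.48 CPM in Control against 0.409, 0.770 and 0.824). Cyp2c55, which hydroxylates arachidonic acid, passed the test on neither day.

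The 3 Cyp2j genes (Cyp2j6, Cyp2j9 and Cyp2j13), epoxygenases of fatty acids, fell on both days, Cyp2j9 by 1.80 ± 0.43 and 3.08 ± 0.46 and Cyp2j6 by 1.43 ± 0.30 and 2.07 ± 0.31. Cyp2j13, near the lower edge of the members in level, was not called on day 1 without the 3 high libraries (-1.40, adjusted p = 0.0647).

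Of the 11 family 4 members, 5 fell and 1 rose on day 1, and 6 fell and 2 rose on day 2. The most abundant, Cyp4f14, was at 642, 459 and 339 CPM in Control and 102, 208 and 164 in ApccKO on day 1, with no overlap. It fell by 1.61 ± 0.48 (adjusted p = 0.0103) and on day 2 by 3.08 ± 0.51. Cyp4f40 was at 130, 93.8 and 106 CPM in Control against 10.5, 22.2 and 17.97, and on day 2 at 137, 136 and 135 against 6.46, 9.56 and 5.91. Its falls of 2.70 ± 0.23 and 4.22 ± 0.24 had the smallest p of any member in the comparison on day 1 (6.24e-08) and on day 2 (2.69e-10). Cyp4f16 fell by 1.89 ± 0.37 and 1.91 ± 0.37, Cyp4f13 fell on both days, and Cyp4a10, a fatty acid hydroxylase under PPARα, fell by 2.13 ± 0.69 and 5.15 ± 0.97. Cyp4v3 fell on day 2, and Cyp4b1, Cyp4f15 and Cyp4x1 passed the test on neither day.

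Cyp2e1, which oxidises ethanol and other small molecules, was at 1.69, 3.39 and 2.02 CPM in Control and 16.4, 25.1 and 21.4 in ApccKO on day 1. On day 2 it was at 0.989, 1.22 and 0.643 against 7.68, 8.52 and 7.91, so the groups did not overlap on either day. Its log2 fold changes were 3.15 ± 0.31 (adjusted p = 3.04e-07) and 3.04 ± 0.34 (3.66e-07). Cyp26b1, which clears retinoic acid, was at 0.273, 0.164 and 0.0984 CPM in Control against 0.409, 1.88 and 1.85 on day 1 (2.92 ± 0.69, adjusted p = 0.00167), and on day 2 it was not called (1.69). Cyp4f39, an enzyme of skin ceramide synthesis, rose by 1.40 ± 0.36 and 1.58 ± 0.35. Cyp20a1, whose substrate is not known, rose by 0.66 ± 0.12 and 0.84 ± 0.12, a small change in which no libraries overlapped. Cyp4f17 rose on day 2 (0.58 ± 0.24, adjusted p = 0.0433). The summed level of 10 crypt-base stem cell markers was 2321 CPM in Control and 7932 CPM in ApccKO on day 1, and 2329 and 5217 CPM on day 2, with 10 and 9 of 10 markers called higher. Its part in the rises was not tested.

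Of the vitamin D and sterol enzymes, Cyp27a1 (sterol 27-hydroxylase) fell on day 2 by 0.87 ± 0.33 and was not called on day 1. Cyp2r1 (vitamin D 25-hydroxylase) and Cyp39a1 were called on neither day, and Cyp39a1 was at 6.67, 8.37 and 7.63 CPM in Control and 7.17, 7.51 and 7.26 in ApccKO on day 1.

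**Figure D2:**
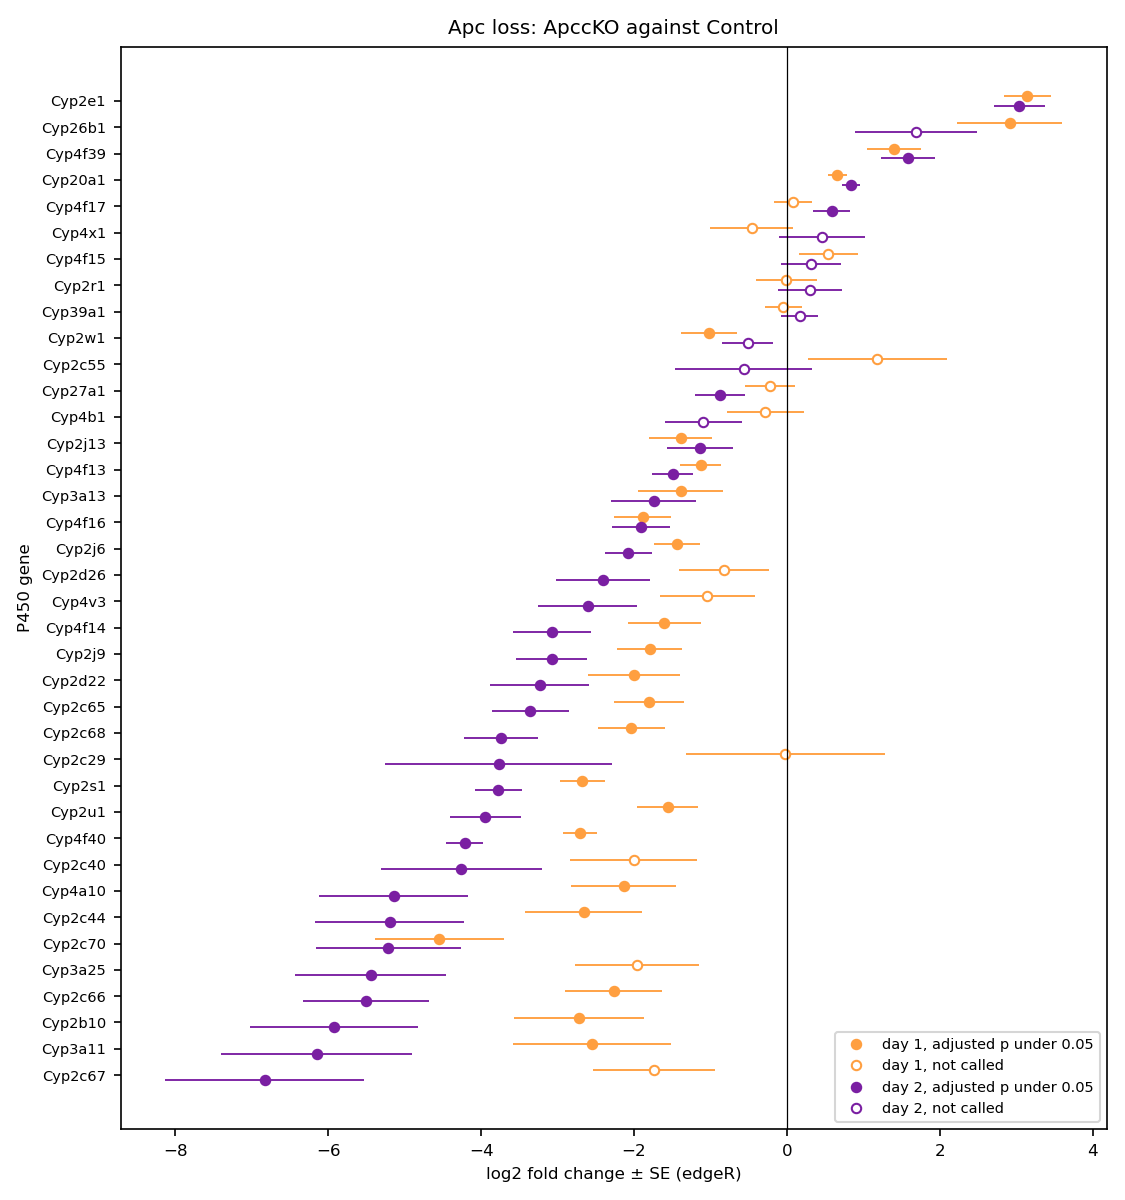
Log2 fold change of ApccKO against Control (x axis, ± SE) for 38 P450 genes (y axis) on day 1 (orange) and day 2 (purple), with filled points past adjusted p of 0.05. Most members lie left of 0, further on day 2, and Cyp2e1 lies near 3 on both days.

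The enterocyte marker sum in ApccKO was 32.6% of Control on day 1 and 14.9% on day 2, and 19 and 26 of the 26 markers fell. Markers of other cell types were lower too: 6 and 10 of 11 tuft cell markers, 11 and 12 of 14 immune markers, 14 and 15 of 18 enteroendocrine markers (1 of the 18 rose on day 1) and 6 and 7 of 11 goblet cell markers fell on day 1 and day 2. Their median log2 fold changes on day 2 were -2.84, -2.69, -1.23 and -1.25, and 3 and 5 of 12 Paneth cell markers rose. As a percentage of the Control level, 16 members on day 1 and 18 on day 2 were lower than the marker sum. The part of any of these cell types in the P450 falls was not tested. Per 1000 CPM of enterocyte markers, Cyp3a13 stood at 12.8 ± 1.40 CPM in Control and 14.5 ± 1.61 in ApccKO on day 1, and at 11.9 ± 1.71 and 24.5 ± 1.37 on day 2. On the same scale, Cyp4f40 was at 3.88 ± 1.34 and 1.75 ± 0.255 on day 1 and at 5.46 ± 3.91 and 1.498 ± 0.0977 on day 2, and Cyp2e1 was at 0.0872 ± 0.0442 in Control and 2.31 ± 0.767 in ApccKO on day 1. The 3 genes were picked after their values were seen.

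**Figure D3:**
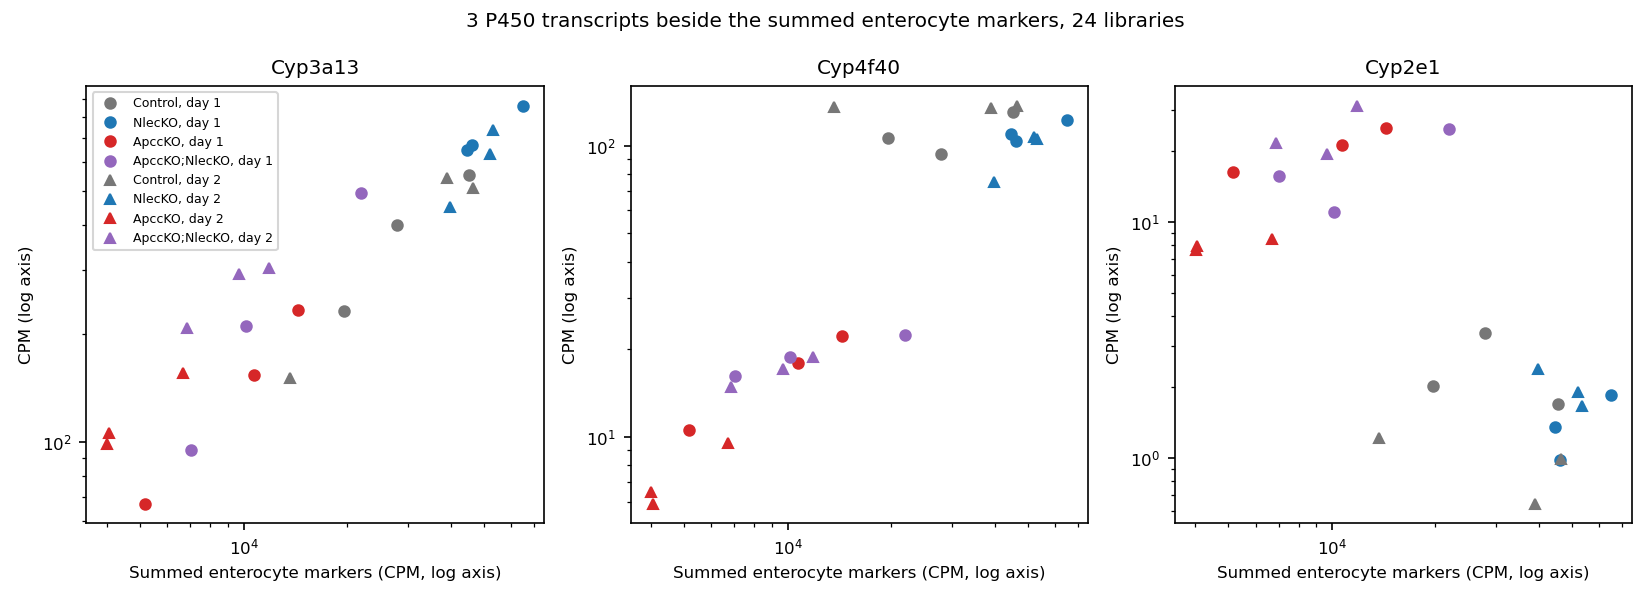
CPM of Cyp3a13, Cyp4f40 and Cyp2e1 (y, log axis) against the summed CPM of 26 enterocyte markers (x, log axis) in 24 libraries. Cyp3a13 is high where the marker sum is high, though on day 2 it lies higher relative to that sum with Apc lost (means of 24.5 and 28.7 CPM per 1000 CPM of markers in ApccKO and the double knockout) than in Control (11.9), Cyp4f40 forms an upper set of Control and NlecKO libraries and a lower set with Apc lost, and Cyp2e1 is high only where Apc was lost.

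Calls of several day 1 members rested on single libraries. Cyp3a11 was not called without Control replicate 1 or 2, or without ApccKO replicate 1 or 3 (adjusted p = 0.0623 to 0.249). Cyp3a13 was not called without any of the same 4 libraries (0.0827 to 0.187), Cyp4f14 without Control replicate 1 or ApccKO replicate 1 (0.0505 and 0.0573), Cyp2b10 without either of those (0.063 and 0.0615, in the same order) and Cyp2c44 without Control replicate 1 (0.0784). Cyp2d22 was not called without Control replicate 1 or ApccKO replicate 1 (0.0983 and 0.0597), Cyp4a10 without ApccKO replicate 1 or 3 (0.0748 and 0.068) and Cyp2w1 without Control replicate 2 or 3 or ApccKO replicate 1 (0.0645, 0.0762 and 0.149). Without the 3 high libraries, the fit rests on 1 ApccKO library that was low in both the marker sum and the summed member level. Larger falls follow in part from that choice. Cyp3a11 (-4.12, adjusted p = 0.0529), Cyp2c44 (-3.08, 0.0595), Cyp26b1 (1.20, 0.339) and Cyp4f39 (1.23, 0.0648) were then not called, nor was Cyp2j13. The same fit gave log2 fold changes of -3.60 for Cyp3a25, -2.49 for Cyp4v3 and -1.10 for Cyp27a1. Cyp2c40 and Cyp2c67 had 0 counts in the ApccKO library that remains. On day 2, Cyp4f17 was not called when any 1 of the 6 libraries was left out (0.0648 to 0.0956), and Cyp3a13 missed the threshold without ApccKO replicate 1 or Control replicate 3 (0.0501 and 0.0519). Cyp27a1 was not called without any of the 6 libraries but Control replicate 2 (0.0511 to 0.146), Cyp2c29 without any ApccKO replicate either (0.0552 to 0.109), and Cyp2j13 without Control replicate 1 or 2 or ApccKO replicate 1 or 3 (0.0534 to 0.109).

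Few P450 transcripts were called on loss of Nle1 in crypts that kept Apc. The members' median log2 fold change was 0.39 on day 1 and 0.26 on day 2, beside -0.004 and 0.003 over all genes tested. On these days 28 and 29 of the 38 members lay above 0. On day 1, edgeR called 0 of 38 members, where 2.48% of all genes were called, so the count is near the share over all genes. At an unadjusted p under 0.05, 2 were higher and 1 lower, and DESeq2 also called 0. The 5 most abundant members were at log2 fold changes of 0.64 ± 0.47 (Cyp4f14), 0.88 ± 0.55 (Cyp3a13), 0.60 ± 0.58 (Cyp2d26), 0.20 ± 0.36 (Cyp4f16) and 0.48 ± 0.97 (Cyp3a11), with adjusted p of 0.429 to 0.836. The enterocyte marker sum in NlecKO was 168% of Control on day 1 and 146% on day 2, and 0 of 26 markers were called on either day. Its part in the P450 values was not tested.

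On day 2, 1 member rose and 1 fell, where 15.6% of all genes were called, 7.33% higher and 8.26% lower. Cyp4f17 was at 2.44, 2.45 and 2.36 CPM in Control and 3.22, 5.02 and 6.32 in NlecKO, with no overlap (1.02 ± 0.24, adjusted p = 0.00663). Cyp2w1, an enzyme known from fetal gut and colon tumours, was at 2.09, 2.45 and 1.29 CPM against 1.18, 0.581 and 0.648 (-1.32 ± 0.35, adjusted p = 0.0146). Of the cell type markers, 10 of 18 enteroendocrine, 1 of 11 goblet cell and 1 of 10 stromal and endothelial markers were higher and 2 of 10 stem cell markers lower, and their part in these calls was not tested. The 5 most abundant members were again not called, at 0.31 ± 0.47 (Cyp4f14), 0.60 ± 0.55 (Cyp3a13), 0.56 ± 0.58 (Cyp2d26), 0.38 ± 0.36 (Cyp4f16) and 0.63 ± 0.97 (Cyp3a11). The count of members called was 0 without NlecKO replicate 3, 1 without NlecKO replicate 2 or Control replicate 2, 4 without Control replicate 3 and 6 without NlecKO replicate 1. Cyp4f17 was above the threshold when NlecKO replicate 3 was left out (0.0641), as was Cyp2w1 without Control replicate 2 or NlecKO replicate 2 or 3 (0.0799, 0.0742 and 0.0837).

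In crypts without Apc, loss of Nle1 gave 1 call on day 1 and 16 on day 2. On day 1, where 10.6% of all genes were called (5.87% higher, 4.77% lower), Cyp4f17 rose. It was at 3.41, 2.84 and 2.11 CPM in ApccKO and 7.06, 9.81 and 10.0 in the double knockout, a log2 fold change of 1.68 ± 0.24 (adjusted p = 0.00018). Without the 3 high libraries it was 1.30 (adjusted p = 0.173) and 0 members were called, and without ApccKO replicate 2 or double knockout replicate 2 the count was 2. The 5 most abundant members gave 0.45 ± 0.47 (Cyp4f14), 0.82 ± 0.55 (Cyp3a13), 0.76 ± 0.59 (Cyp2d26), 0.50 ± 0.37 (Cyp4f16) and -0.24 ± 0.996 (Cyp3a11), with none called. The stem cell markers gave 4 of 10 lower, and 2 of 18 enteroendocrine and 2 of 10 stromal and endothelial markers were higher, with the part of these not tested.

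On day 2, 14 members rose and 2 fell with Nle1 loss in Apc-lost crypts, where 34.9% of all genes were called, 19.5% higher and 15.4% lower. The members' median log2 fold change was 1.16, beside 0.06 over all genes. Families 1 to 3 gave 7 of the risers: Cyp2c29 (4.81 ± 1.45), Cyp2c66 (3.34 ± 0.83), Cyp2c55 (2.83 ± 0.92), Cyp2c65 (2.52 ± 0.49), Cyp2d26 (1.83 ± 0.61), Cyp2e1 and Cyp2u1. Cyp2c65 was at 6.20, 11.3 and 5.81 CPM in ApccKO and 39.2, 45.8 and 49.0 in the double knockout, with no overlap. Cyp2c55 was at 1.56, 12.1 and 6.74 CPM against 14.8, 79.2 and 51.1, above every Control library (at most 26.8) in 2 of 3 mice. Cyp2e1 went from 7.68, 8.52 and 7.91 CPM to 31.2, 21.8 and 19.5.

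Family 4 gave 5 risers: Cyp4a10 (3.91 ± 1.03), Cyp4f17, Cyp4f14 (1.26 ± 0.48, adjusted p = 0.0489, with overlapping groups), Cyp4f40 and Cyp4f13. Cyp4f17 went from 3.47, 3.79 and 3.63 CPM to 10.9, 13.3 and 14.0, above all Control libraries of both days. Cyp4f40 went from 6.46, 9.56 and 5.91 CPM to 18.8, 14.9 and 17.05, which is still far below the Control level. The other risers were Cyp26b1 (2.02 ± 0.58; 0.130, 0.677 and 0.465 CPM against 1.95, 1.72 and 1.51) and Cyp27a1. Cyp39a1 fell, from 8.197, 8.75 and 10.3 CPM to 4.36, 5.10 and 3.74 (-1.05 ± 0.25, adjusted p = 0.00273), and so did Cyp4f15 (-1.12 ± 0.41, adjusted p = 0.0371). Not called were Cyp3a13 (1.17 ± 0.55, adjusted p = 0.113), Cyp3a11 (0.94 ± 1.15) and Cyp4f16 (0.73 ± 0.37).

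The enterocyte marker sum in the double knockout was 193% of ApccKO on day 2, with 3 of 26 markers called higher, and 13 of 38 members were below that percentage. The stem cell marker sum was 5217 CPM in ApccKO and 2079 CPM in the double knockout, with 9 of 10 markers lower. Of the other cell types, 13 of 18 enteroendocrine markers rose and 2 fell, 9 of 14 immune markers rose, 7 of 11 goblet cell markers rose and 1 fell, 4 of 10 stromal and endothelial markers rose and 1 fell, and 3 of 11 tuft cell markers rose and 1 fell. The part of any of these in the P450 calls was not tested. The number of members called was 7 without ApccKO replicate 1 and 8 without ApccKO replicate 3. Without ApccKO replicate 1, the named members Cyp2c29, Cyp2c55, Cyp26b1, Cyp4f15, Cyp4f14 and Cyp2d26 were not called (adjusted p = 0.0581 to 0.15). Cyp2c29 was also lost without ApccKO replicate 3 (0.0629), Cyp2c55 without ApccKO replicate 3 or double knockout replicate 2 or 3 (0.0711, 0.0881 and 0.0516), and Cyp4f15 without any of ApccKO replicates 2 and 3 or double knockout replicates 2 and 3 (0.065 to 0.136). Cyp4f14 and Cyp2d26 were lost without ApccKO replicate 3 or double knockout replicate 1 (0.0934 to 0.194 for both genes), and Cyp4f14 also without double knockout replicate 3 (0.0887). Cyp27a1 and Cyp4f13 were not called without any 1 ApccKO library or double knockout replicate 1 (0.0542 to 0.175 for both genes), and Cyp2u1 without any 1 ApccKO library (0.0531 to 0.0709).

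**Figure D4:**
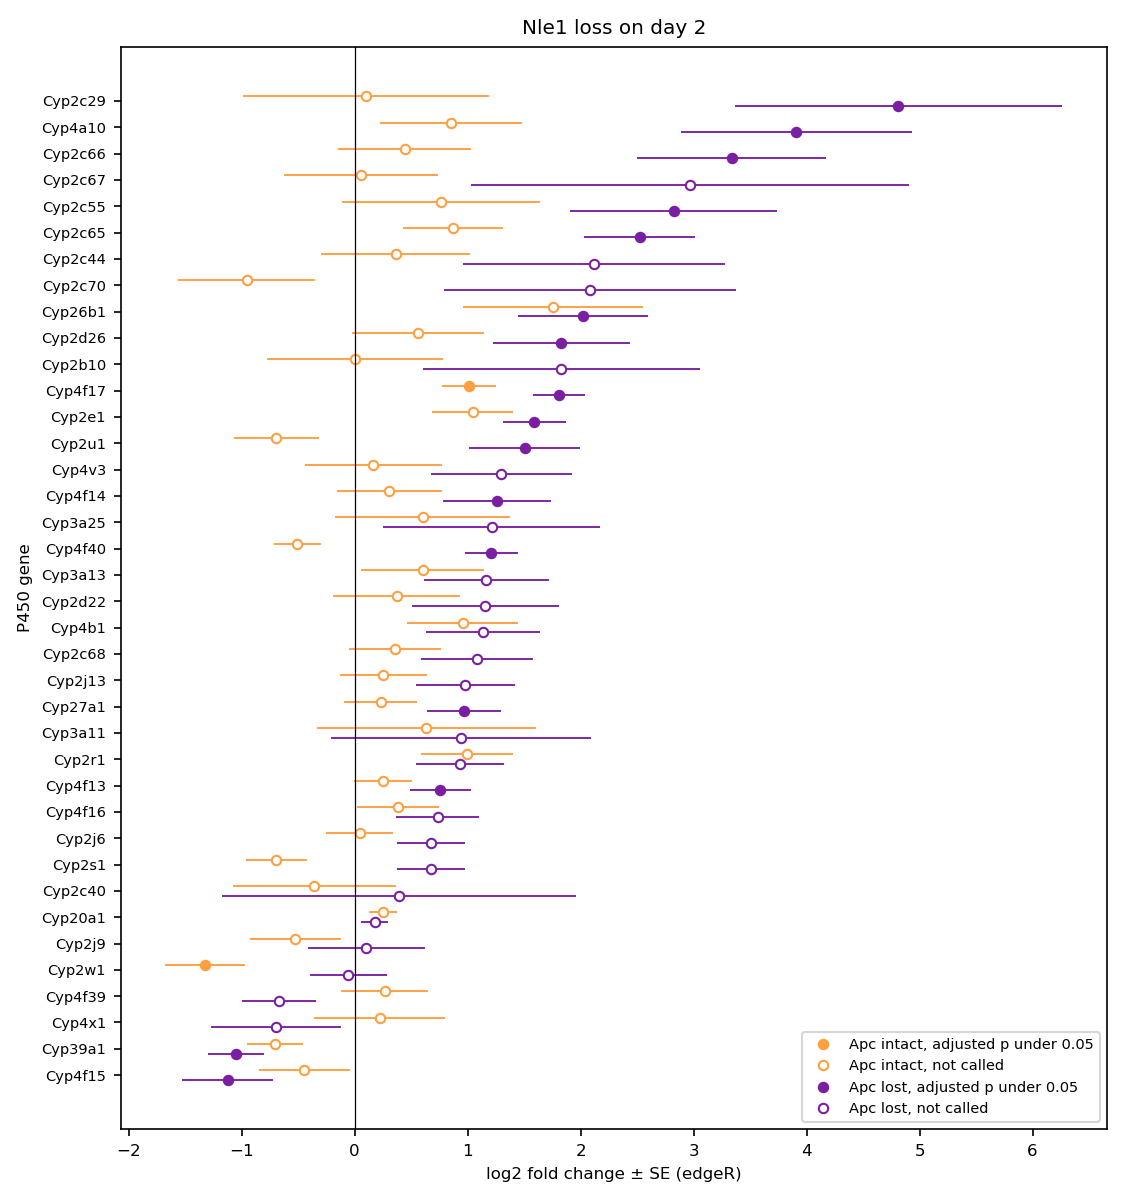
Log2 fold change on Nle1 loss on day 2 (x axis, ± SE) for 38 P450 genes (y axis), in crypts with Apc (orange, NlecKO against Control) and without Apc (purple, double knockout against ApccKO). With Apc lost 14 members lie to the right as filled points, with Apc intact only Cyp4f17 does.

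Whether the Nle1 effect itself differed with Apc was tested by the interaction, the Nle1 effect with Apc lost minus that with Apc intact. On day 1 edgeR called 0 of 38 members, where 0.0121% of all genes were called. At an unadjusted p under 0.05, 1 member was higher, and DESeq2 called 0. The day 1 interaction was -0.20 ± 0.66 for Cyp4f14, -0.06 ± 0.77 for Cyp3a13, 0.16 ± 0.82 for Cyp2d26, 0.29 ± 0.51 for Cyp4f16 and -0.73 ± 1.39 for Cyp3a11. On day 2, 2 of 38 members passed, both higher, where 5.24% of all genes were called, 3.29% higher. The count is thus near the share over all genes. Cyp4f40 gave -0.51 ± 0.21 with Apc intact (106, 107 and 74.7 CPM in NlecKO, all below Control; not called, adjusted p = 0.11) and 1.21 ± 0.23 with Apc lost. Its interaction was 1.72 ± 0.31 (adjusted p = 0.00426), and it was called in each of 12 fits with 1 library left out (0.00203 to 0.016). Cyp2u1 was at 8.84, 4.23 and 9.48 CPM in Control, 6.07, 4.90 and 3.00 in NlecKO, 0.434, 0.496 and 0.512 in ApccKO and 1.37, 1.39 and 1.35 in the double knockout. Its interaction was 2.20 ± 0.62 (adjusted p = 0.0434), and it was not called in 10 of 12 fits with 1 library left out (adjusted p up to 0.105). The number of members called was 1 without each of 9 of the 12 libraries, 2 or 3 without ApccKO replicate 2 or NlecKO replicate 1, and 4 without Control replicate 2. Cyp4f14 (0.95 ± 0.66), Cyp3a13 (0.56 ± 0.77), Cyp2d26 (1.27 ± 0.83), Cyp4f16 (0.35 ± 0.51) and Cyp3a11 (0.31 ± 1.495) did not pass. The Cyp4f17 effect of Nle1 loss, called on day 2 with and without Apc, gave an interaction of 0.79 ± 0.33 (adjusted p = 0.182).

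**Figure D5:**
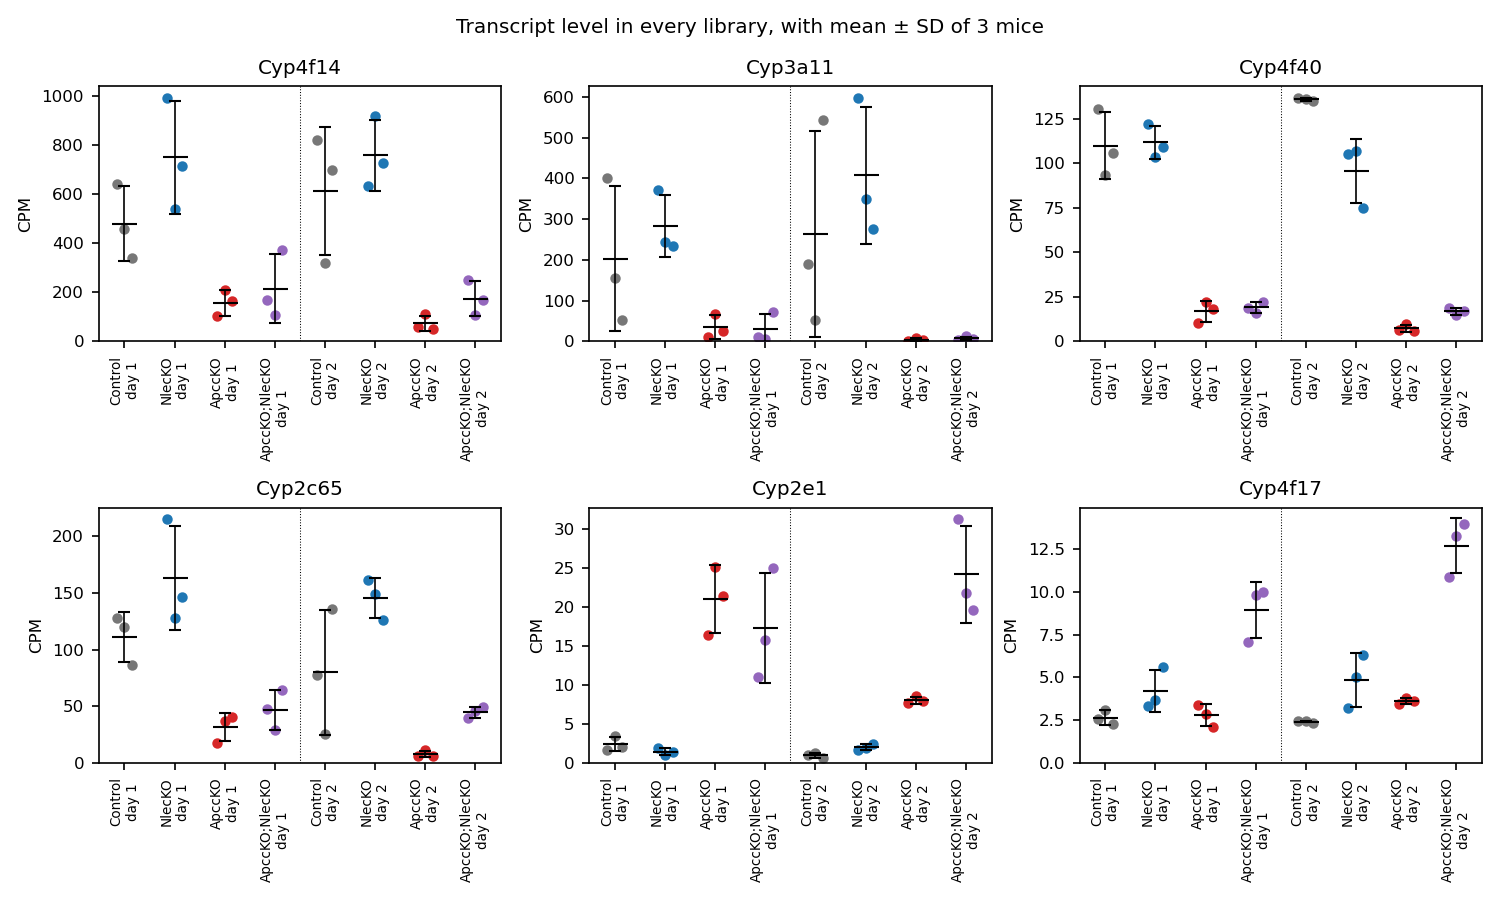
CPM (y axis, from 0) of 6 P450 genes in each library by genotype and day (x axis), with bars for the mean ± SD of 3 mice. Cyp4f14, Cyp3a11, Cyp4f40 and Cyp2c65 have lower group means where Apc was lost, and only Cyp4f40 does so without overlap of single libraries. Cyp2e1 is high where Apc was lost, and Cyp4f17 is highest in the ApccKO;NlecKO libraries.

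Apc loss was also compared in crypts without Nle1, double knockout against NlecKO. On day 1, 19 members fell and 5 rose (52.6% of all genes called, 24.4% lower and 28.2% higher). On day 2, 20 fell and 4 rose (47.8% of all genes called, 22.2% lower and 25.6% higher). Of the 19 that fell on day 1, 17 (89.5%) fell on day 2, where they were 85.0% of the fallen. Cyp3a11 fell by 3.28 ± 1.06 (adjusted p = 0.0159) and 5.84 ± 1.22, and Cyp3a25, Cyp2b10 and Cyp4f14 fell with it. Cyp3a25 gave -3.12 ± 0.85 and -4.83 ± 0.93, Cyp2b10 -3.52 ± 0.88 and -4.10 ± 0.95, and Cyp4f14 -1.80 ± 0.48 and -2.12 ± 0.49. Also among the largest falls were Cyp2c66 (-3.12 ± 0.66), Cyp2c68 (-2.61 ± 0.44) and Cyp4f40 (-2.55 ± 0.22) on day 1, and Cyp2c67 (-3.91 ± 0.93), Cyp2c40 (-3.51 ± 1.04) and Cyp2c44 (-3.44 ± 0.79) on day 2. Cyp4f16 fell by 1.59 ± 0.37 and 1.56 ± 0.37, and Cyp3a13 by 1.45 ± 0.56 on day 1 (adjusted p = 0.0368) but not past the threshold on day 2 (-1.18 ± 0.55, 0.088). Cyp2d26 passed on neither day (-0.66 ± 0.58 and -1.14 ± 0.59).

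The risers were Cyp2e1 (3.63 ± 0.33 and 3.59 ± 0.32), Cyp26b1 (2.55 ± 0.59 and 1.96 ± 0.58), Cyp4f17 (1.09 ± 0.23 and 1.38 ± 0.23), Cyp20a1 (0.90 ± 0.12 and 0.76 ± 0.12) and, on day 1, Cyp4f39 (0.92 ± 0.37, adjusted p = 0.0442). Cyp4f39 was not called when any 1 of the 6 libraries was left out (adjusted p = 0.051 to 0.127), nor by DESeq2 (0.073). Cyp3a13 was lost on day 1 without any of NlecKO replicates 1 to 3 or double knockout replicates 1 or 2 (0.0515 to 0.147), and Cyp3a11 without double knockout replicate 1 or 2 (0.0676 and 0.0614). The enterocyte marker sum was 25.1% of NlecKO on day 1 and 19.6% on day 2, with 23 and 26 of 26 markers lower. On day 1 and day 2, 9 and 11 of 11 tuft cell, 8 and 11 of 14 immune, 15 and 15 of 18 enteroendocrine and 7 and 7 of 11 goblet cell markers were lower, and 10 and 8 of 10 stem cell markers higher. The part of any of these in the calls was not tested. Without the 3 high libraries, Cyp4f39 was not called on day 1 either (1.01, adjusted p = 0.0601), while Cyp2c40, Cyp2c67, Cyp4v3, Cyp4a10 and Cyp4b1 were called lower (0.000991 to 0.0348). Leaving out the double knockout library with the highest marker sum itself favours such falls.

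Between the days, 0 members were called in Control, NlecKO and the double knockout, where edgeR called 0.163% of all genes in Control (0.109% higher, 0.0544% lower), 0.0362% in NlecKO (0.0181% higher, 0.0181% lower) and 6.49% in the double knockout (3.46% higher, 3.04% lower). At an unadjusted p under 0.05, 1 was lower in Control, 1 lower in NlecKO, and 2 higher and 2 lower in the double knockout, and DESeq2 called 1, 0 and 0. In ApccKO 9 members fell from day 1 to day 2 and 0 rose, where 11.3% of all genes were called, 5.49% lower. These were Cyp2c66 (-3.56 ± 0.83), Cyp4a10 (-3.53 ± 1.05), Cyp3a25 (-3.39 ± 0.94), Cyp2c65 (-2.03 ± 0.49), Cyp2u1 (-1.89 ± 0.48), Cyp2c68 (-1.83 ± 0.48), Cyp2e1, Cyp4f40 and Cyp2s1. Without the 3 high libraries 0 were called (adjusted p = 0.368 to 0.628 for the first 6), and without ApccKO day 1 replicate 2 or 3, or day 2 replicate 1 or 3, the counts were 3, 5, 3 and 4. DESeq2 called 16. The enterocyte marker sum in ApccKO on day 2 was 48.8% of that on day 1, with 4 of 26 markers lower, and 6 of 11 tuft cell, 5 of 11 goblet cell, 5 of 18 enteroendocrine and 4 of 14 immune markers were lower too. Their part was not tested. Not called in ApccKO were Cyp3a11 (-3.23 ± 1.14), Cyp2d26 (-1.73 ± 0.60), Cyp4f14 (-1.12 ± 0.48), Cyp3a13 (-0.34 ± 0.55) and Cyp4f16 (-0.17 ± 0.37). The same 5 genes ran from -0.14 to 0.37 in Control, -0.26 to 0.52 in NlecKO and -2.04 to 0.07 in the double knockout.

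The Apc effect on day 2 minus that on day 1 was called for 1 member, where 1.13% of all genes were called, 0.526% higher and 0.604% lower. Cyp4f40 gave -1.51 ± 0.31 (adjusted p = 0.0225), with adjusted p of 0.0018 to 0.0732 when 1 library was left out (not called in 7 of 12) and -0.85 (0.617) without the 3 high libraries. The count was 3 without ApccKO day 1 replicate 1 or Control day 2 replicate 2, 2 without Control day 1 replicate 1, and 0 without any of the 7 libraries that end this call. For Cyp3a11 the difference was -3.60 ± 1.49, for Cyp2d26 -1.59 ± 0.83, for Cyp4f14 -1.47 ± 0.67, for Cyp3a13 -0.36 ± 0.77 and for Cyp4f16 -0.02 ± 0.51, with none called.

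Of 18 electron-transfer and haem partners tested, 8 fell and 4 rose with Apc loss on day 1, when 25% of all genes tested fell and 24.7% rose, so the rises are near the share over all genes. On day 2, 11 fell and 3 rose, against 29.4% and 29.2% of all genes. The partners' median log2 fold change was -0.24 on day 1 and -0.40 on day 2. Por fell by 1.47 ± 0.25 on day 1, Cyb5r3 (cytochrome b5 reductase) by 1.48 ± 0.34 and 2.07 ± 0.35, Alas1 by 0.83 ± 0.14 and 0.83 ± 0.14, and Pgrmc1, a haem-binding partner, by 0.84 ± 0.21 and 1.29 ± 0.22. Hmox1, which breaks haem down, rose on day 2 by 2.31 ± 0.32. On Nle1 loss with Apc lost on day 2, 3 of 18 partners rose and 0 fell, where 19.5% of all genes rose and 15.4% fell. The rises are near the share over all genes. They were Alas1 (0.61 ± 0.14), Hmox1 (1.07 ± 0.28) and Cpox (0.29 ± 0.10). With Apc intact on day 2, 1 of 18 partners rose, Hmox1 (1.66 ± 0.33), also near the share over all genes (7.33% higher).

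Of 27 transcription factors and repressors known to act on P450 genes, 19 fell and 0 rose with Apc loss on each day. The same 25% and 29.4% of all genes were lower on day 1 and day 2. Ahrr and Tiparp are in this list and also among the Ah receptor targets below. Their median log2 fold change was -0.57 on day 1 and -0.70 on day 2. Ppara fell by 2.38 ± 0.26 and 4.16 ± 0.29, Hnf4g by 2.37 ± 0.26 and 3.73 ± 0.27, and Nfe2l2, the regulator of the oxidant response, by 1.23 ± 0.12 and 1.75 ± 0.12. The bile acid receptor Nr1h4 fell by 1.77 ± 0.18 on day 1 and the liver X receptor Nr1h3 by 2.06 ± 0.19 on day 2. On Nle1 loss with Apc lost on day 2, 12 rose and 3 fell (19.5% of all genes higher, 15.4% lower), with Rarg (2.65 ± 0.36), Pparg (1.79 ± 0.24), Nfe2l2 (1.18 ± 0.12) and Ppard (0.90 ± 0.15) at the smallest p. With Apc intact on day 2, 2 rose and 7 fell, where 7.33% of all genes were higher and 8.26% lower, so the rises are near the share over all genes. Of these, Rarg (1.90 ± 0.37) and Pparg (1.15 ± 0.24) rose, and Hnf4a (-0.35 ± 0.08) was among those that fell.

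Of 5 Ah receptor targets tested, 3 fell on day 1 and 4 on day 2 with Apc loss, beside the same shares of all genes: Gsta1 by 3.98 ± 0.62 and 6.55 ± 0.71, Nqo1 by 2.24 ± 0.32 and 3.16 ± 0.34 and Ugt1a6a by 1.24 ± 0.15 and 1.85 ± 0.16, with Tiparp (-0.80 ± 0.14) on day 2. On Nle1 loss with Apc lost on day 2, Gsta1 (2.68 ± 0.63) and Ugt1a6a (1.13 ± 0.16) rose. Ephx1, the microsomal epoxide hydrolase that acts on the epoxides P450 enzymes make, rose on Nle1 loss in each comparison: by 1.32 ± 0.15 on day 1 and 2.41 ± 0.16 on day 2 with Apc intact, and by 1.78 ± 0.16 and 2.97 ± 0.16 with Apc lost. Its group means were 77.8, 195, 65.7 and 226 CPM in Control, NlecKO, ApccKO and double knockout on day 1. Ephx2, the soluble epoxide hydrolase, fell with Apc loss by 1.63 ± 0.58 and 3.49 ± 0.63. Ephx4, another member of that family, rose on day 2, from 0 CPM in all 3 Control libraries to a mean of 0.763 CPM in ApccKO.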

How the data were processed

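Poly(A) RNA of jejunal crypts from 24 mice in 8 groups was sequenced, and replicates are separate mice. Per the submitters' processing notes, the authors used kallisto 0.43, DESeq and DESeq2, and the mm9 build. The annotation release is not given in the sources used here. The deposited estimated counts and TPM values per gene were used, and the authors' DESeq-normalized columns were not.

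Estimated counts were rounded to whole numbers and tested with edgeR 4.0.16 (R 4.3.3, limma 3.58.1): TMM scaling, filterByExpr with a minimum count of 10, 8 group means fitted over all 24 libraries, the robust quasi-likelihood test and Benjamini-Hochberg adjustment over 16552 genes, with calls at 0.05. CPM values use TMM library sizes. The SE is the log2 fold change divided by the square root of F. The authors' TPM values served only to set levels of different genes side by side. On data simulated for Apc loss with Nle1 present on day 2 (16210 genes), 62 genes were changed 1.5-fold, 55 2-fold and 80 4-fold. There edgeR recovered 29% of 1.5-fold, 54.5% of 2-fold and 86.2% of 4-fold changes, with 3 false calls of 120. In the real comparison 58.7% of all genes were called, far more than were changed in the simulation. These rates therefore need not hold for the real data.

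Alternatives were DESeq2 1.42.0, its size factors in edgeR, other filters on low counts, a fit of only the libraries compared, a replicate block, a term for sex and leaving out each library. A fit without 3 day 1 libraries was added after seeing the data. Replicate numbers were not taken to pair mice: over 84 same-numbered pairs, deviations from group means correlated at -0.494 to 0.587 (median 0.046), and 31 exceeded 0.1. Within groups, libraries correlated at 0.982 to 0.995 and no pair was identical.

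Members and lists were chosen with earlier results of these data known. Every member is named, and each comparison names up to 6 called members per direction by size of change and the 5 most abundant members. Other lists are named from their 4 smallest p, and some of these genes are not reported here. Positions and shared words come from GENCODE M21 (GRCm38) and promoters from RefSeq (GRCm38.p6). No coordinates were converted between builds. Protein sequences were not used here.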

Additional observations from a re-analysis of the deposited data

Results flagged for a closer look

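The Nle1 effect on Cyp4f40 on day 2 differed between crypts with and without Apc, by the interaction test (1.72 ± 0.31 on the log2 scale, edgeR adjusted p = 0.00426). The same test gave 2.20 ± 0.62 (adjusted p = 0.0434) for Cyp2u1, which was not called in 10 of 12 fits with 1 library left out. These 2 of 38 members are near the share over all genes (5.24% called). The Apc effect on Cyp4f40 with Nle1 present differed between the days, by -1.51 ± 0.31 (adjusted p = 0.0225). That call was lost in 7 of 12 fits with 1 library left out, and 1.13% of all genes were called there.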

How the results depend on the processing

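Of 133 calls of members over the 15 comparisons, 47 were lost in at least 1 alternative (204 of 1784 values), 41 of them when 1 library was left out and 34 in another setting. Of the 133, 1 changed sign, Cyp2c29 with Apc loss on day 2 without Control replicate 3 (0.205). Cyp3a11 and Cyp3a13 with Apc loss on day 1 were lost with DESeq2 size factors, no filter or only the libraries compared (adjusted p = 0.0502 to 0.0959). Cyp4f14 on Nle1 loss with Apc lost on day 2 was lost with the same settings (0.0504 to 0.11). A sex term, set by each library's reads from Y-linked genes (2 males in NlecKO on day 2 and 1 in each other group of 3), ended the calls of Cyp3a11 with Apc loss on day 1 (-2.546, adjusted p = 0.0552) and of Cyp4f14 on Nle1 loss with Apc lost on day 2 (1.189, 0.0553). Without a filter, 19 calls missed the threshold (0.0501 to 0.0959). With DESeq2 the number of members called was 4 with Nle1 lost and Apc intact on day 2, 4 for the interaction on day 2, 1 for the days in Control, 16 for the days in ApccKO and 4 for the Apc effect on day 2 minus day 1. Without a filter the interaction on day 2 gave 1. With a term for sex, Nle1 loss with Apc intact on day 2 gave 6 and the Apc effect on day 2 minus day 1 gave 2, and both gave 0 when only the libraries compared were fitted. Without the 3 high day 1 libraries, Nle1 loss with Apc lost on day 1, the days in ApccKO and the Apc effect on day 2 minus day 1 each gave 0. The causes of these moves were not tested. The last 2 settings also held fewer libraries.

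With the replicate block, 22, 0, 1, 23 and 0 members were called on day 1 (Apc loss, Nle1 loss with Apc intact, Nle1 loss with Apc lost, Apc loss with Nle1 lost, interaction) and 29, 2, 15, 24 and 2 on day 2. Between days the block gave 0, 0, 7 and 0 in Control, NlecKO, ApccKO and the double knockout, and 1 for the Apc effect on day 2 minus day 1. The block ended the calls of Cyp3a11 (adjusted p = 0.0661) and Cyp3a13 (0.0705) with Apc loss on day 1, Cyp4f39 with Nle1 lost on day 1 (0.0584), Cyp4f14 on Nle1 loss with Apc lost on day 2 (0.0804), Cyp2c29 with Apc loss on day 2 (0.0736), and Cyp4a10 (0.0541) and Cyp2s1 (0.0511) between the days in ApccKO. The block also turned the uncalled day difference of Cyp3a13 in Control to -0.031.

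Among the members named in each comparison, the values that changed sign belong to the 5 most abundant members where they were not called. Sign changes of other uncalled members were not collected. With a filter of 2 CPM, Cyp3a13 gave -0.001 between the days in the double knockout, and Cyp4f16 gave 0.01 for the Apc effect on day 2 minus day 1. With a term for sex, Cyp3a13 gave 0.005 in the day 1 interaction and -0.031 between the days in the double knockout, and in NlecKO Cyp4f14 gave -0.07 and Cyp4f16 -0.108. Without the 3 high libraries, Cyp3a13 gave 0.3 in the day 1 interaction, 0.819 between the days in ApccKO and 0.796 for the Apc effect on day 2 minus day 1. Cyp4f16 then gave 0.167 and 0.305 in the latter pair, and Cyp4f14 and Cyp2d26 gave 0.352 and 0.006 between the days in the double knockout.

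Leaving out 1 library at a time, the number of members called ran from 1 to 2 for Nle1 loss with Apc lost on day 1, 7 to 14 on day 2, 0 to 6 with Apc intact on day 2, 1 to 4 for the interaction on day 2, 0 to 1 for the days in NlecKO (1 without day 2 replicate 1), 3 to 13 for the days in ApccKO and 0 to 3 for the Apc effect on day 2 minus day 1. For Apc loss it was 17 to 27 on day 1 and 26 to 29 on day 2, and with Nle1 lost 19 to 28 and 23 to 26. Log2 fold changes of uncalled members whose sign turned ran as follows. With Nle1 lost and Apc intact, Cyp4f16 ran from -0.07 to 0.73 on day 1 and Cyp4f14 from -0.002 to 0.579 on day 2. With Apc lost on day 1, Cyp3a11 ran from -2.108 to 0.708 and Cyp4f14 from -0.211 to 0.764. In the interaction on day 1, Cyp2d26 ran from -0.508 to 0.534, Cyp3a11 from -2.593 to 0.225, Cyp3a13 from -0.868 to 0.391, Cyp4f14 from -0.857 to 0.122 and Cyp4f16 from -0.234 to 0.554, and on day 2 Cyp3a11 from -0.8 to 1.411. Between the days in Control, Cyp2d26 ran from -0.456 to 0.353, Cyp3a11 from -0.735 to 1.337, Cyp3a13 from -0.262 to 0.412 and Cyp4f16 from -0.471 to 0.385. In NlecKO, Cyp2d26 ran from -0.32 to 0.096, Cyp4f14 from -0.17 to 0.274 and Cyp4f16 from -0.198 to 0.276. In ApccKO, Cyp3a13 ran from -0.709 to 0.108. In the double knockout, Cyp2d26 ran from -0.999 to 0.01, Cyp3a13 from -0.394 to 0.817, Cyp4f14 from -0.645 to 0.356 and Cyp4f16 from -0.115 to 0.387. For the Apc effect on day 2 minus day 1, Cyp3a13 ran from -0.75 to 0.086 and Cyp4f16 from -0.552 to 0.304.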
